A study of Mus musculus with 8 samples.

Results

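The 28 genes described here encode the transporters, enzymes and regulators with which liver takes up hexoses, burns them to pyruvate, makes new glucose and stores it as glycogen. They were taken by symbol from a table of 22013 mouse genes: 27 matched by symbol, and G6pc, listed there as G6pc1, was matched by its gene identifier. All 28 were among the 12207 genes with enough counts to be tested. The libraries were made from poly(A)-selected RNA of mouse liver, 4 labelled control and 4 labelled resmetirom. Resmetirom (Rem) activates thyroid hormone receptor beta, the form that predominates in hepatocytes. According to the series' design text, steatohepatitis (MASH) was modelled by 12 weeks on the FPC diet (fructose, palmitate and cholesterol), and Rem at 5 mg/kg/day was injected intraperitoneally for 8 weeks, beginning when 4 weeks of diet had passed. The vehicle was 0.5% CMC-Na with 0.4% Tween-80. The control labels state neither the diet nor the vehicle, and strain, sex, age, feeding state and hour of sampling are not given in the sources used here. Nothing says that each library came from a separate mouse, so p-values measure the spread between libraries, which may be technical.

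Glucose enters the hepatocyte through the transporter GLUT2 (Slc2a2), is phosphorylated in a step that the inhibitory protein Gckr controls, and is carried to pyruvate by the glycolytic enzymes. Gluconeogenesis runs most of these reactions backwards and bypasses the irreversible ones with pyruvate carboxylase, PEPCK, fructose-1,6-bisphosphatase and glucose-6-phosphatase. Glycogen synthase and glycogen phosphorylase build and degrade the glycogen store, and protein phosphatase 1, brought to the glycogen particle by targeting subunits, switches the former on and the latter off. Insulin, glucagon and thyroid hormone are all known to act on this network in liver.

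Counts per library summed to 16787561 to 19887539, and the 28 genes took 0.942% to 1.12% of the counts in control libraries and 0.753% to 1.06% in Rem libraries. A group of abundant secreted proteins differed in share between libraries: the 20 major urinary protein (Mup) genes took 4.32% to 7.05% of counts in control libraries and 7.54% in Rem 1, but 20.1%, 25.1% and 17.8% in Rem 2, 3 and 4. The trimmed-mean (TMM) factors that adjust library sizes were 1.06 to 1.16 in the control libraries and Rem 1, and 0.867, 0.804 and 0.879 in Rem 2, 3 and 4. In clock genes, 3 libraries also stood apart. Dbp, an output gene of the circadian clock, was at 6.71, 53.3, 36.9 and 36.5 CPM (counts relative to the library's size, TMM-scaled, as are all CPM values here) in control 1 to 4, and at 26.0, 36.8, 0.866 and 1.97 in Rem 1 to 4. Arntl, which peaks in the opposite phase, was at 16.0 in control 1 and at 14.4 and 14.9 in Rem 3 and 4, against 1.79 to 7.10 in the other libraries. The 3 libraries low in Dbp are therefore control 1, Rem 3 and Rem 4, and values without them are given below beside the results that rest on them.

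With TMM scaling 2 of the 28 genes rose and 0 fell, whereas with library sizes only or TPM, described further on, 0 rose and 9 or 12 fell. The genes that rose were Pgk1 (phosphoglycerate kinase), of glycolysis, and Ldha (the main lactate dehydrogenase subunit of liver), at the pyruvate branch. A gene was called where edgeR's quasi-likelihood test gave a Benjamini-Hochberg adjusted p under 0.05 over all 12207 genes. By that rule 2.6% of all genes tested were called higher and 1.99% lower. At an unadjusted p under 0.05 the 95% interval excluded 0 on the lower side for 6 genes (Pfkl, Pgam1, Pcx, Ugp2, Gbe1 and Pygl) and on the upper side for 3 (Aldoa, Pgk1 and Ldha), where 8.36% of all genes tested were lower and 9.48% higher at that p. DESeq2 and limma-voom also called 2 genes higher and 0 lower, where DESeq2 called 3.79% of all its genes higher and 2.78% lower, and limma-voom 2.7% and 1.86%. The fold changes lay below 0 for 13 genes and above 0 for 15, with a median log2 fold change of 0.080 against -0.0043 over all genes tested. In 3 genes (Khk, Pfkl and Pygl) every Rem library lay below every control library, and in 2 (Pgk1 and Ldha) every one lay above, where 5.5% and 6.32% of all genes tested did so.

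**Figure D1:**
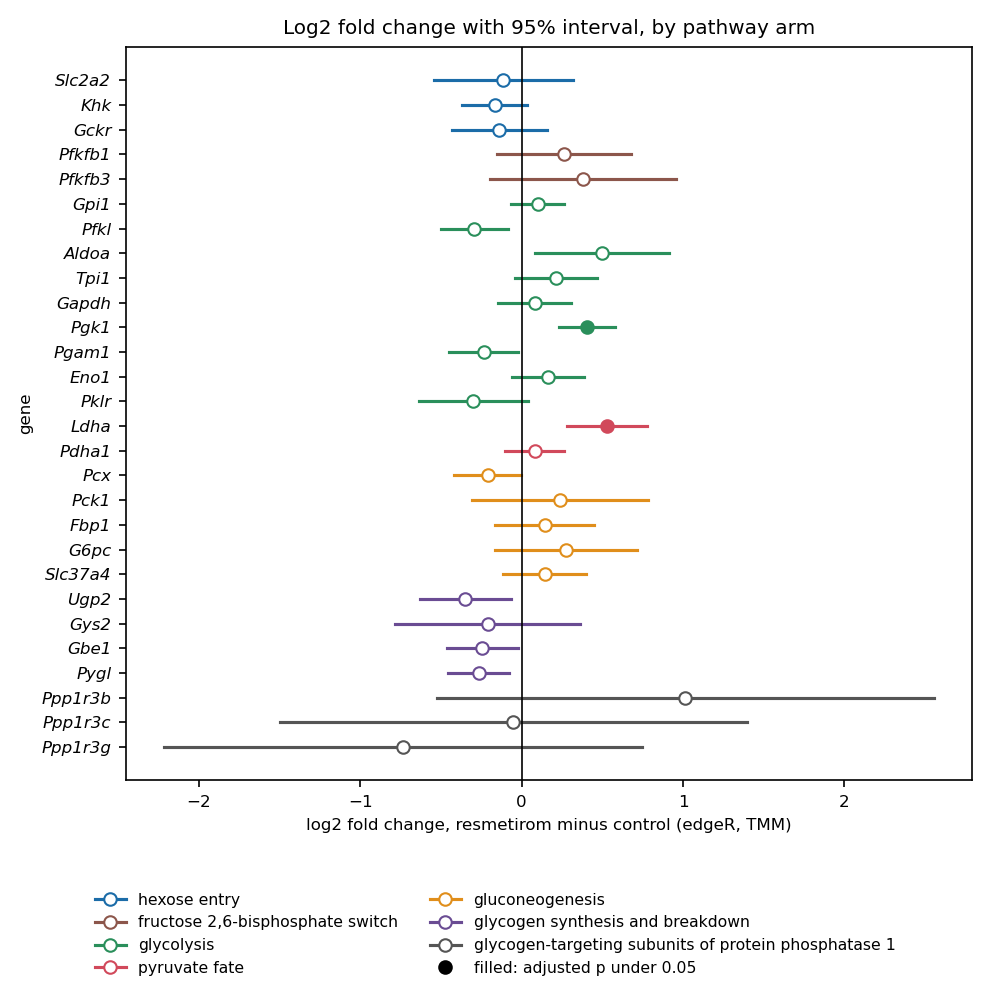
Log2 fold change of each of the 28 genes (x axis, Rem minus control, 4 libraries a group, TMM scaling) with its 95% interval, coloured by pathway arm. Filled points are the 2 genes with an adjusted p under 0.05, Pgk1 at 0.40 and Ldha at 0.53, and the widest intervals are those of the 3 protein phosphatase 1 subunits.

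Pgk1 makes the first ATP of glycolysis from 1,3-bisphosphoglycerate. Its level was 345, 374, 340 and 341 CPM in control 1 to 4, and 466, 438, 455 and 496 in Rem 1 to 4. All 4 Rem libraries lay above all 4 controls, and both groups were narrow. The means were 350 ± 16.3 and 463 ± 24.6 CPM (SD, n = 4 each). The log2 fold change was 0.40 with an SE of 0.079 and an edgeR adjusted p of 0.0116. With 1 library left out at a time the edgeR adjusted p was 0.0148 to 0.0488 and the call held in all 8 fits. The call was lost when the replicate number was added to the fit as a block (edgeR adjusted p 0.0549). Without the 3 libraries low in Dbp, which leaves 3 control and 2 Rem libraries, the log2 fold change was 0.36 and the edgeR adjusted p 0.143.

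Ldha converts pyruvate to lactate and, in liver, mostly lactate back to pyruvate for gluconeogenesis. Its level was 1257, 1455, 1150 and 1126 CPM in control 1 to 4, and 1762, 1605, 2099 and 1725 in Rem 1 to 4. The groups did not overlap, and Rem 3 was the highest library. The means were 1247 ± 150 and 1798 ± 212 CPM (SD, n = 4 each). The log2 fold change was 0.53 with an SE of 0.113 and an edgeR adjusted p of 0.0189. The call was lost without control 3, control 4 or Rem 3, with edgeR adjusted p values of 0.0628, 0.0787 and 0.0528. It was also lost with the replicate number as a block (edgeR adjusted p 0.0713). Without the 3 libraries low in Dbp the log2 fold change was 0.44 and the edgeR adjusted p 0.169.

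Because Pgk1 and Ldha were the only members that passed the test, the 250 bases before their RefSeq start sites are shown (GRCm38.p6, plus strand, lower case). Capitals mark the letters ACGTG or their reverse complement, the core that E-boxes and hypoxia response elements share. For Pgk1 the window is chrX:106186850-106187099, and for the first of the listed Ldha starts it is chr7:46845554-46845803.
Pgk1: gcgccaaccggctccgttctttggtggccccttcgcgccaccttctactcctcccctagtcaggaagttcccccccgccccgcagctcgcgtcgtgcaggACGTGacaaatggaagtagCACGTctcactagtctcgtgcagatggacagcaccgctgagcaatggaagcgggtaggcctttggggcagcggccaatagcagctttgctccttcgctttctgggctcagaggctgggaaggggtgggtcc
Ldha: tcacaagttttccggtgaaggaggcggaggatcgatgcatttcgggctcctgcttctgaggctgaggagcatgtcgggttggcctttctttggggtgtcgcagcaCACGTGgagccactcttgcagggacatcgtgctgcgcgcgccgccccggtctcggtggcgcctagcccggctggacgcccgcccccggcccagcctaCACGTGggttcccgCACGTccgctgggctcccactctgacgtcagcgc
The Pgk1 window held 2 matches on either strand. The Ldha window held 2 copies of the full E-box CACGTG, each of which contains ACGTG on both strands, and 1 further match. The window of the other listed Ldha start, chr7:46846832-46847081, held 0 matches to either motif. Of all 32851 RefSeq promoter windows of that length, 16.6% held ACGTG and 6.02% held CACGTG. Of the 40 windows of members, 13 (32.5%) held ACGTG and 5 (12.5%) held CACGTG. Among the members, 26 had a RefSeq window, and 11 of them had ACGTG and 5 had CACGTG in at least 1 window (Khk, Ldha, Pcx, Pfkfb3 and Ppp1r3c). AGGTCA, the hexamer recognised by many nuclear receptors and by thyroid hormone receptors, was searched on both strands too. It was in 14% of all windows, in 9 (22.5%) of the 40 windows of members and in a window of 8 members (Aldoa, Eno1, G6pc, Pfkfb1, Pklr, Pygl, Slc2a2 and Slc37a4), and it was absent from the windows of Pgk1 and Ldha. These matches describe letters in a window and say nothing of binding.

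The 9 enzymes from glucose-6-phosphate to pyruvate did not move together: 6 lay above 0 and 3 below, with a median log2 fold change of 0.099 and 1 call, Pgk1. The lower ones sit at regulated steps and at the mutase. Pfkl, the liver subunit of phosphofructokinase, which commits hexose to glycolysis, was at 25.7, 28.1, 25.7 and 25.1 CPM in control 1 to 4 and at 20.7, 22.1, 22 and 20.5 in Rem 1 to 4. The groups did not overlap, and the log2 fold change was -0.29 with an SE of 0.095, but the edgeR adjusted p was 0.116. Pklr, the liver pyruvate kinase of the last step, was at 56.2, 49.6, 32.4 and 54.9 CPM in control and at 36.1, 41.4, 37.4 and 41.9 in Rem. Control 3 lay under all Rem libraries. The log2 fold change of Pklr was -0.30 (edgeR adjusted p 0.351), and without control 3 it was -0.45 and passed the test (edgeR adjusted p 0.0405). Pgam1, the mutase that moves the phosphate of 3-phosphoglycerate, had a log2 fold change of -0.24 (edgeR adjusted p 0.234), with control libraries at 190 to 240 CPM and Rem libraries at 170 to 197.

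The other 6 enzymes lay above 0 with TMM scaling, and all 6 lay below 0 on log2(TPM + 1), described further on. Aldoa, the aldolase typical of muscle and growing cells, was at 117, 80.1, 85.1 and 89.7 CPM in control 1 to 4 and at 108, 97.3, 170 and 149 in Rem 1 to 4. Its highest libraries were Rem 3, Rem 4 and control 1, the same 3 that were low in Dbp, and the groups overlapped. The log2 fold change was 0.50 with an SE of 0.186 (edgeR adjusted p 0.192), and without those 3 libraries it was 0.27. Of 5 muscle markers, 3 (Acta1, Myh4 and Tnnt3) had no counts in any library, Ckm had 2 counts in Rem 2 only, and Mylpf had 1 to 8 counts a library. The 5 summed to 0.047 to 0.363 CPM in control and 0.26 to 0.451 in Rem. Tpi1, the triose phosphate isomerase, was at 363 to 510 CPM in control and 443 to 554 in Rem (log2 fold change 0.21, edgeR adjusted p 0.385). Eno1, an enolase, was at 352 to 451 and 422 to 472 CPM (log2 fold change 0.16, edgeR adjusted p 0.463). Gpi1, which interconverts glucose-6-phosphate and fructose-6-phosphate, was at 137 to 155 and 152 to 161 CPM (log2 fold change 0.10). Gapdh, often used as a reference gene, was at 954 to 1222 and 1075 to 1214 CPM, and its log2 fold change of 0.08 had a 95% interval of -0.14 to 0.31.

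**Figure D2:**
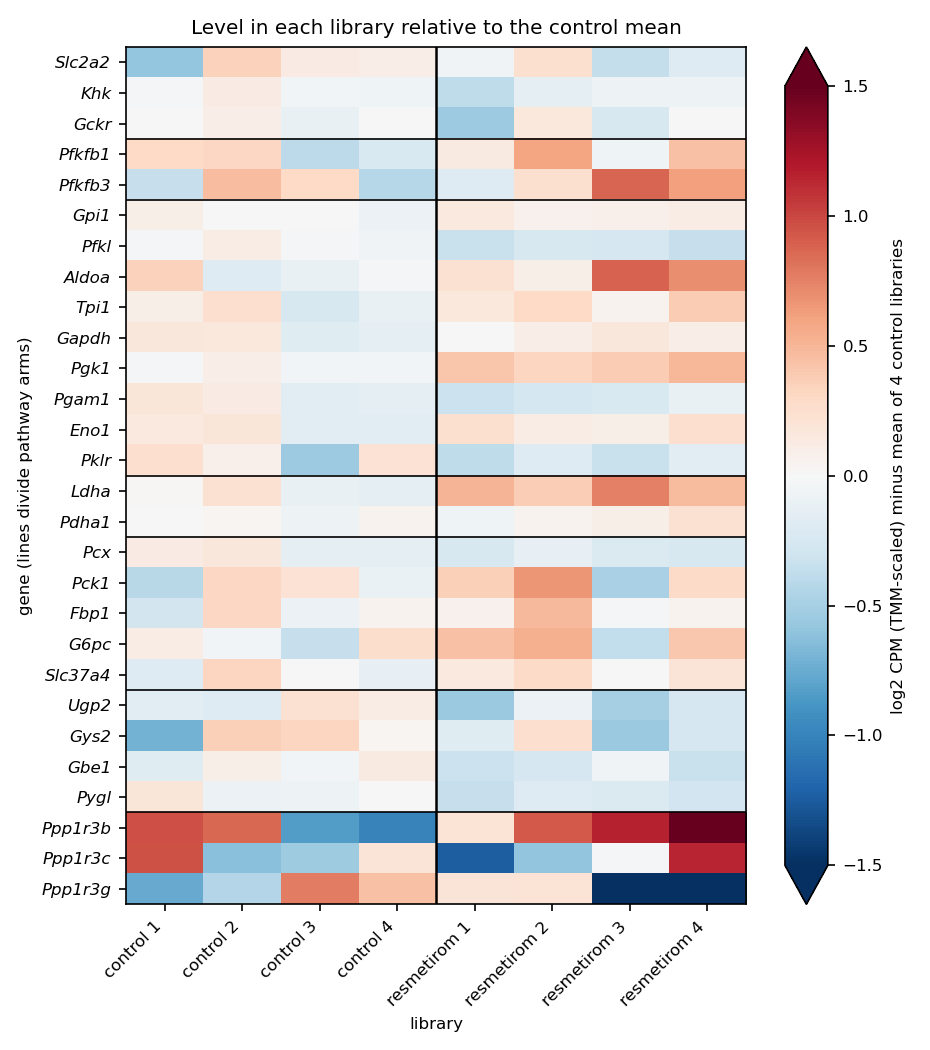
Level of the 28 genes (rows, grouped by pathway arm) in the 8 libraries (columns), as log2 CPM minus the mean of the 4 control libraries. Pgk1 and Ldha are higher in all 4 Rem libraries, Pfkl, Khk and Pygl lower in all 4, and the 3 bottom rows vary widely within each group.

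The bifunctional PFKFB enzymes set the level of fructose 2,6-bisphosphate, the allosteric signal that turns phosphofructokinase on and fructose-1,6-bisphosphatase off. Pfkfb1, the bifunctional enzyme typical of liver, was at 17.1 to 27.9 CPM in control and 21.4 to 33.6 in Rem (log2 fold change 0.26, edgeR adjusted p 0.549). Pfkfb3, a form with high kinase activity, was at 6.01, 10.5, 9.41 and 5.69 CPM in control 1 to 4 and at 6.65, 9.03, 14 and 11.7 in Rem 1 to 4 (log2 fold change 0.38, edgeR adjusted p 0.523). Both groups overlapped in both genes. Neither was called in any alternative fit that was run.

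Hexose entry lay slightly below 0, with 3 of 3 fold changes negative, a median of -0.14 and 0 edgeR calls (0 at an unadjusted p under 0.05, 0 by DESeq2). Khk, the ketohexokinase that traps dietary fructose, was at 154, 170, 151 and 149 CPM in control 1 to 4 and at 119, 141, 148 and 148 in Rem 1 to 4. The groups were apart by a narrow margin, since control 4 and Rem 3 and 4 nearly met. Its log2 fold change was -0.17 with an SE of 0.093 (edgeR adjusted p 0.395). Slc2a2 was at 130, 248, 211 and 209 CPM in control 1 to 4 and at 187, 230, 151 and 169 in Rem 1 to 4. The lowest 3 libraries were control 1, Rem 3 and Rem 4, and the log2 fold change between groups was -0.11 (edgeR adjusted p 0.836), or -0.093 without those 3. Gckr was at 55.8 to 64.8 CPM in control and 41.4 to 67.3 in Rem (log2 fold change -0.14, edgeR adjusted p 0.680), with Rem 1 the lowest.

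At the pyruvate branch, Ldha rose and Pdha1, the catalytic alpha subunit of pyruvate dehydrogenase, stood at 183 to 200 CPM in control and 184 to 226 in Rem (log2 fold change 0.08, 95% interval -0.10 to 0.26). Of the 15 other genes of pyruvate dehydrogenase and pyruvate transport, 2 rose and 0 fell. These were both subunits of the mitochondrial pyruvate carrier, through which cytosolic pyruvate enters the matrix. Mpc1 was at 322 to 381 CPM in control and 538 to 641 in Rem, a log2 fold change of 0.76 (SE 0.094, edgeR adjusted p 0.000652). Mpc2 was at 115 to 147 CPM in control and 164 to 226 in Rem, a log2 fold change of 0.66 (SE 0.117, edgeR adjusted p 0.00625). No library of either group overlapped the other in these 2 genes. Both calls held with any 1 library left out, and Mpc1 kept its call without the 3 libraries low in Dbp while Mpc2 did not (edgeR adjusted p 0.0749). With log2(TPM + 1), described below, neither was called, and with library sizes only Mpc2 was not.

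No gluconeogenic member was called: of 5, 4 lay above 0 and 1 below with TMM scaling (all 5 below with library sizes only), with a median log2 fold change of 0.14, and only Pcx had an unadjusted edgeR p under 0.05. DESeq2 called 0 of them. Pck1, the cytosolic PEPCK and the best known fasting-responsive enzyme of the pathway, was at 1513, 2496, 2342 and 1877 CPM in control 1 to 4 and at 2591, 3206, 1444 and 2455 in Rem 1 to 4. Its lowest libraries were Rem 3 and control 1, and its log2 fold change was 0.24 (SE 0.241, edgeR adjusted p 0.697). G6pc, the catalytic subunit of glucose-6-phosphatase, was at 176, 158, 128 and 196 CPM in control and at 220, 235, 126 and 215 in Rem. Rem 3 was again the lowest Rem library, within the range of the controls, and the log2 fold change was 0.27 (SE 0.196, edgeR adjusted p 0.547). Slc37a4, the transporter that feeds glucose-6-phosphate to that enzyme, was at 95.5 to 136 and 109 to 133 CPM (log2 fold change 0.14). Fbp1, the liver fructose-1,6-bisphosphatase, was at 477 to 714 CPM in control and 565 to 804 in Rem (log2 fold change 0.14, edgeR adjusted p 0.684). Pcx, the pyruvate carboxylase of the first step, was the one below 0: it was at 455 to 570 CPM in control and 427 to 466 in Rem, a log2 fold change of -0.21 with an edgeR adjusted p of 0.272.

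The 4 enzymes of glycogen synthesis and breakdown all lay below 0, with a median log2 fold change of -0.25. EdgeR and DESeq2 called 0 of them, and 3 (Ugp2, Gbe1 and Pygl) had an unadjusted edgeR p under 0.05. The sign was the same for the synthetic enzymes and for the degrading one. Ugp2, which makes the UDP-glucose that glycogen is built from, was at 403, 393, 526 and 486 CPM in control 1 to 4 and at 304, 423, 317 and 376 in Rem 1 to 4 (log2 fold change -0.35, SE 0.128, edgeR adjusted p 0.171). Only Rem 2 reached into the control range. Gys2, the liver glycogen synthase, was at 112, 234, 228 and 187 CPM in control and at 161, 219, 125 and 154 in Rem (log2 fold change -0.21, SE 0.250, edgeR adjusted p 0.748). Control 1 was its lowest library of all, so the groups overlapped throughout. Gbe1, the branching enzyme, was at 82.3 to 102 CPM in control and 73.7 to 90.0 in Rem (log2 fold change -0.24, edgeR adjusted p 0.226).

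Pygl, the liver glycogen phosphorylase, was at 265, 219, 221 and 232 CPM in control 1 to 4 and at 183, 204, 200 and 192 in Rem 1 to 4. Every Rem library was below every control library, and the log2 fold change of -0.27 (SE 0.087) had an edgeR adjusted p of 0.120. The within-library ratio of Gys2 to Pygl, which needs no scaling, had a log2 mean of -0.35 ± 0.62 in control and -0.27 ± 0.33 in Rem (SD, n = 4 each), with overlapping groups. Of 20 other glycogen genes tested (phosphorylase kinase, debranching enzyme, glycogenin and others), 0 were called by edgeR or DESeq2, 3 had an unadjusted edgeR p under 0.05 (Pygm, Phkg2 and Stbd1), 12 lay below 0 and 8 above. The smallest p was that of Stbd1, a glycogen-binding protein, at a log2 fold change of -0.28 (edgeR adjusted p 0.0867).

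The subunits that target protein phosphatase 1 to glycogen varied far more between libraries of 1 group than the enzymes did. Ppp1r3b, the main liver form, was at 123, 114, 35.1 and 31.3 CPM in control 1 to 4 and at 72.4, 118, 140 and 282 in Rem 1 to 4. The control group thus split into 2 high and 2 low libraries, and Rem 4 was the highest of all. The log2 fold change of 1.02 had an SE of 0.64 (edgeR adjusted p 0.506) and a 95% interval of -0.52 to 2.55. Ppp1r3c, a subunit of broader distribution, was at 49.5, 16.5, 17.6 and 29.2 CPM in control and at 10.8, 16.9, 25.2 and 56.3 in Rem (log2 fold change -0.05, SE 0.605). Ppp1r3g, a subunit reported to act after feeding, had only 2 to 74 counts a library, with 2 in Rem 3 and 7 in Rem 4. Its log2 fold change was -0.73 with a 95% interval of -2.21 to 0.75, so neither a large fall nor a moderate rise was outside what these libraries allow.

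Some members followed the libraries that were low in Dbp more than the groups. In Gys2 and Slc2a2 control 1, Rem 3 and Rem 4 were the lowest 3 libraries, as described above. Of 16 core clock genes, edgeR called 0 between the groups (3 at an unadjusted p under 0.05: Per1, Per2 and Nr1d1), DESeq2 1 higher and 2 lower, and the smallest edgeR p was that of Nr1d1 (log2 fold change -0.72, edgeR adjusted p 0.0542). Without those 3 libraries 0 of the 28 members were called by edgeR in either direction, 3 control libraries being compared with 2 Rem libraries, and their median log2 fold change was -0.052. In these 5 libraries 1.67% of all genes tested were called higher and 1.27% lower. The log2 fold change of Gys2 there was -0.19, that of Pck1 0.37 and that of G6pc 0.50. Among the phosphatase subunits, Ppp1r3b was at 0.66, Ppp1r3c at -0.61 and Ppp1r3g at -0.14. Pdha1 and Pfkfb3, above 0 in the fit of all 8 libraries, were at -0.01 and -0.13. The part of clock phase or feeding state in any of these differences was not tested.

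**Figure D3:**
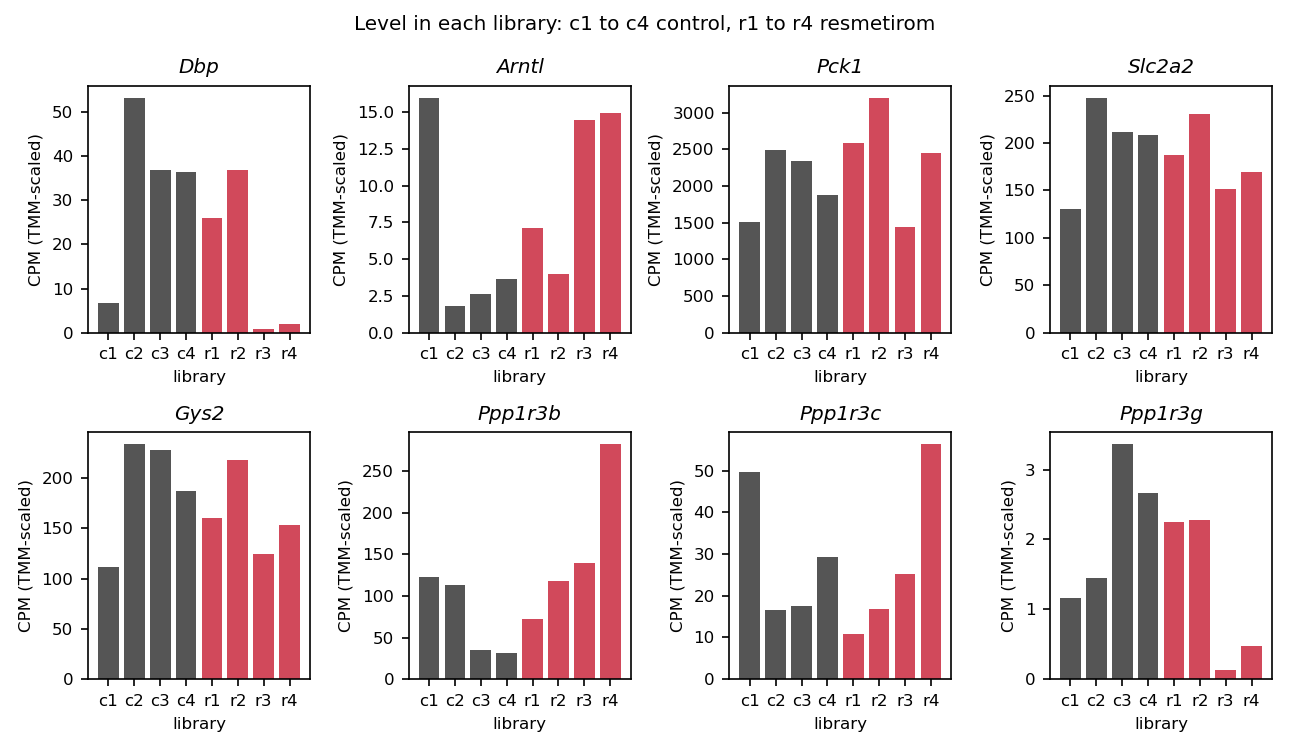
TMM-scaled CPM (y axis, from 0) in each library (x axis: c1 to c4 control, r1 to r4 Rem) for 2 clock genes (Dbp, Arntl) and 6 members. Dbp is at 6.71 or less in c1, r3 and r4, where Arntl is high and Slc2a2 and Gys2 are low, while Ppp1r3b is highest in r4 at 282.

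The direction of many members depended on how the libraries were scaled. With library sizes alone in place of TMM factors, the median log2 fold change of all genes tested moved to -0.31, and 1.24% of genes were called higher and 16.1% lower. Under that scaling 0 members were called higher and 9 of 28 lower (Khk, Gckr, Pfkl, Pgam1, Pklr, Pcx, Ugp2, Gbe1 and Pygl). On log2(TPM + 1), where TPM corrects for gene length and fixes the sum of every library, the median of all genes was -0.41, and 1.04% of genes were called higher and 38.0% lower by limma-trend. There 0 members were called higher and 12 lower, a share close to that of all genes. The 2 genes that rose with TMM did not rise on this scale: Ldha had a log2 fold change of 0.02 and Pgk1 one of -0.10. In the authors' deposited table, whose fold changes are ratios of mean TPM, 0 members were higher and 14 lower at an adjusted p under 0.05, where 0.863% and 23.6% of its genes were. Those shares are over all 22013 genes, 5994 of which had no counts in any library, while every member had counts. A share over expressed genes was not computed for that table, so the 14 cannot be set against the 23.6%. The authors' deposited table gives Pygl a log2 fold change of -0.76, Ugp2 one of -0.83 and Pfkl one of -0.75.

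Relative to all genes the members moved less between scalings. The median of the 28 genes minus that of all genes was 0.085 with TMM factors, 0.081 with library sizes only and -0.013 with log2(TPM + 1). The glycogen enzymes lay below the median of all genes by 0.25, 0.26 and 0.34 log2 units under these 3 scalings. Khk, Gckr, Pfkl, Pgam1, Pklr, Pcx, Ugp2, Gys2, Gbe1, Pygl and Ppp1r3g (11 genes) were below 0, and Ldha and Ppp1r3b (2 genes) above 0, in each of the 22 alternatives run. The TMM factors moved with the Mup share, whose part in the result was not tested. With library sizes counted without the Mup genes, an alternative chosen after the data were seen, 2 members were called higher (Pgk1 and Ldha) and 4 lower (Pfkl, Pgam1, Pcx and Pygl), where 1.86% of all genes tested were called higher and 3.6% lower. The median of all genes was -0.12 under that scaling.

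**Figure D4:**
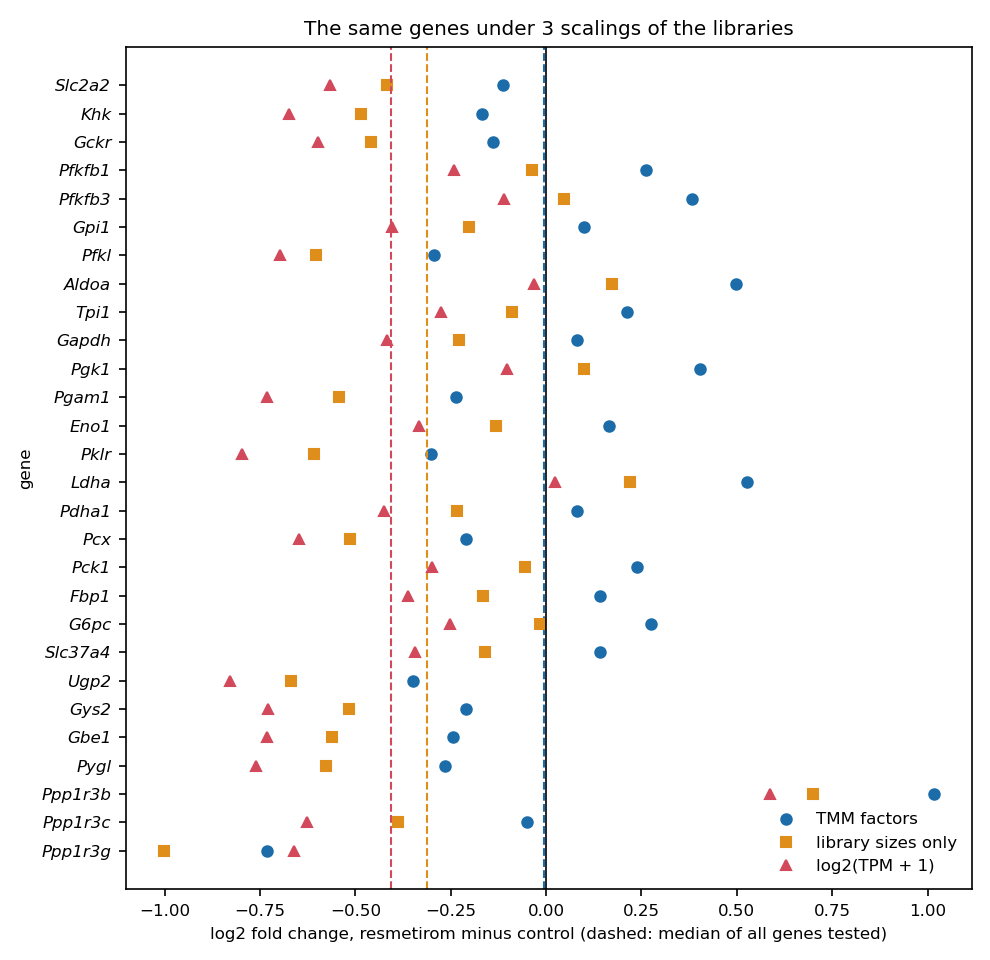
Log2 fold change (x axis, Rem minus control) of each of the 28 genes under TMM factors (circles), library sizes only (squares) and log2(TPM + 1) (triangles), with the median of all genes tested under each as a dashed line. All genes shift left from TMM to the other scalings except Ppp1r3g, which is farthest left with library sizes only, and the dashed lines shift with them from -0.0043 to -0.31 and -0.41.

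Ratios of 2 genes within a library are free of any scaling. Of 8 ratios between opposed enzymes, the groups were apart in 2. How often the groups come apart in pairs drawn from all genes tested was not counted, so this number is a description only. The log2 ratio of Pfkl to Fbp1, the opposed pair at fructose 1,6-bisphosphate, was -4.46 ± 0.20 in control and -4.90 ± 0.21 in Rem (SD, n = 4 each). That of Pdha1 to Ldha was -2.69 ± 0.16 and -3.14 ± 0.20. The other 6 overlapped, among them Pklr to Pck1 (-5.42 ± 0.63 and -5.90 ± 0.45) and Pck1 to G6pc (3.63 ± 0.53 and 3.59 ± 0.12).

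Ratios between neighbouring steps were added after the data were seen, and the groups were apart in 5 of the 15. The share over pairs of all genes was not counted for these either. Every ratio that was apart, among these or the opposed enzymes, holds Pgk1, Ldha, Pfkl or Pgam1. The log2 ratio of Pgam1 to Pgk1 was -0.53, -0.70, -0.84 and -0.83 in control 1 to 4 and -1.46, -1.32, -1.33 and -1.33 in Rem 1 to 4. The change in its mean, -0.63, was several times the SD of either group (0.146 and 0.066). Eno1 to Pgam1 went from 0.90 ± 0.047 to 1.31 ± 0.11, Pgk1 to Gapdh from -1.63 ± 0.16 to -1.31 ± 0.11, Pfkl to Gpi1 from -2.48 ± 0.089 to -2.87 ± 0.090, and Ldha to Pklr from 4.72 ± 0.36 to 5.51 ± 0.24 (SD, n = 4 each). Each ratio compares a gene with its named neighbour and does not say which of the pair changed. These ratios share genes with each other and with the fold changes above, so they are not separate evidence, and no test was made on them. All ratios between neighbouring gluconeogenic or glycogen genes overlapped between groups.

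**Figure D5:**
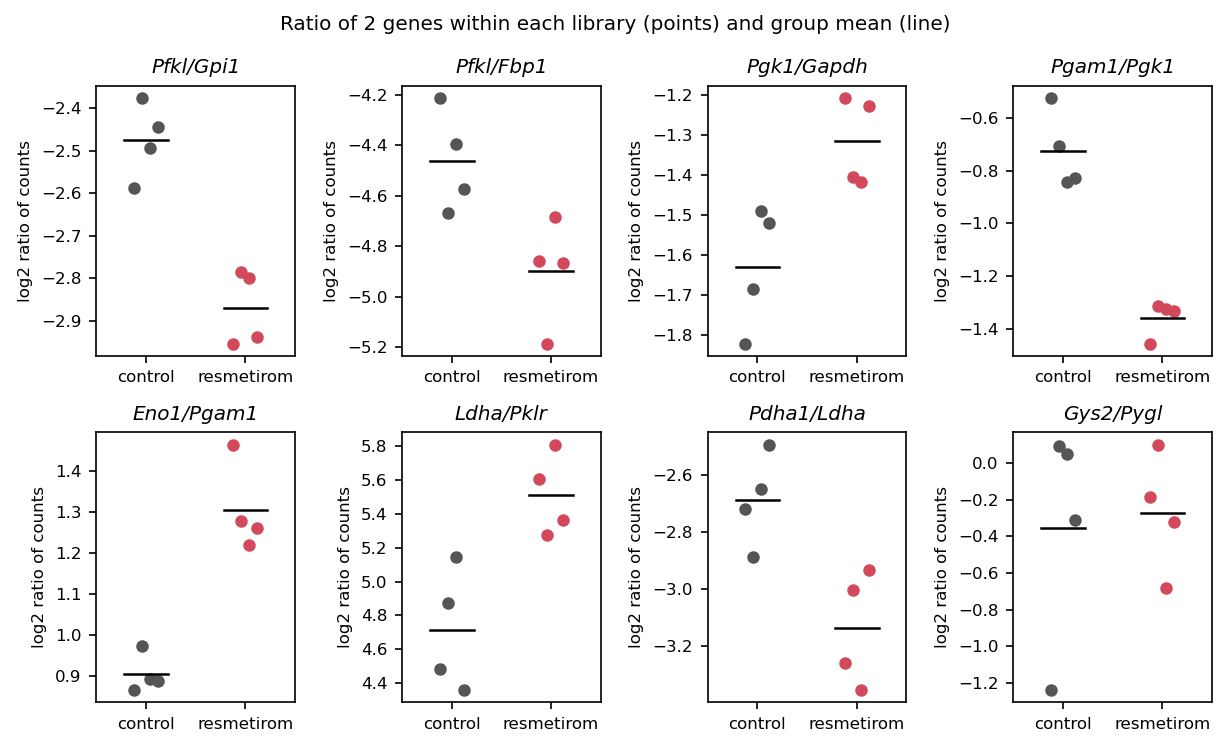
Log2 ratio of the counts of 2 genes in each library (points, 4 per group) with the group mean (line), each panel with its own y axis, not from 0. In 7 of the 8 panels the groups do not overlap, and in the last, Gys2 to Pygl, they do. The panels hold every ratio whose groups were apart, but only Gys2 to Pygl of those that overlapped. Among all ratios computed, the groups overlapped in 6 of 8 between opposed enzymes and in 10 of 15 between neighbouring steps.

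On TPM, which allows genes to be compared, 3 genes dominated the group in control liver: Ldha at 1463 ± 134, Pck1 at 1443 ± 323 and Gapdh at 1437 ± 129 TPM (SD, n = 4 each). These 3 did not differ from each other beyond their spread and made up 50.7% of the members' summed TPM in control and 54.5% in Rem. Fbp1 followed at 735 ± 131 TPM, then Tpi1 at 523 ± 67.5. Pfkl, at 13.1 ± 0.60 TPM, was far under the enzymes around it, such as Gpi1 at 130 ± 9.11. The lowest were Pfkfb3 at 3.16 ± 0.93 and Ppp1r3g at 1.73 ± 0.88 TPM. In Rem libraries the same 3 genes led, at 1497 ± 256 (Ldha), 1229 ± 460 (Pck1) and 1079 ± 138 TPM (Gapdh).

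Other genes of these pathways were described from lists. Of 16 other glycolysis genes tested, edgeR called 1 higher, Aldoc, and 0 lower, while DESeq2 called 2 of 19 higher and 0 lower. Aldoc, an aldolase best known from brain, was at 2.0, 2.47, 1.82 and 1.78 CPM in control 1 to 4 and at 12.5, 9.09, 3.46 and 8.00 in Rem 1 to 4 (log2 fold change 2.03, SE 0.335, edgeR adjusted p 0.00413). Every Rem library was higher, and the call held in all 22 alternatives. Of 18 other gluconeogenesis genes, edgeR called 0 higher and 1 lower: Ldhd, the D-lactate dehydrogenase, was at 84.6 to 114 CPM in control and 43.0 to 65.9 in Rem (log2 fold change -0.82, edgeR adjusted p 0.00625). It too was called in all 22 alternatives. With TMM scaling 16 of the 18 lay above 0, with a median of 0.14 (-0.17 with library sizes only). DESeq2 called 3 higher and 1 lower, where it called 3.79% and 2.78% of all its genes. At an unadjusted edgeR p under 0.05, 5 were above 0 and 2 below, where 9.48% and 8.36% of all genes tested were.

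Among 10 genes of fructose, galactose and polyol metabolism, 3 fell. In galactose breakdown, Galm (the mutarotase) had a log2 fold change of -0.51 (edgeR adjusted p 0.00384) and Galk1 (the kinase) one of -0.62 (edgeR adjusted p 0.00278), and both calls held in all 22 alternatives. Slc2a5, the fructose transporter GLUT5, fell: it was at 2.47 to 4.98 CPM in control and 0.789 to 2.08 in Rem (log2 fold change -1.49, edgeR adjusted p 0.0331). The call of Slc2a5 was lost without control 2 or 4 or Rem 1, 3 or 4 (edgeR adjusted p up to 0.116), and also without the 3 libraries low in Dbp (edgeR adjusted p 0.0996). Khk, described above, which acts next on fructose, was not called.

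Among 25 regulators, 3 lay above 0 and 2 below at an unadjusted edgeR p under 0.05. DESeq2 called 2 higher and 1 lower, while edgeR called 0 higher and 1 lower, Mlxipl. Mlxipl encodes ChREBP, the carbohydrate-sensing factor that is known to drive Pklr and other glycolytic and lipogenic genes. It was at 43.9, 40.1, 40.4 and 42.4 CPM in control 1 to 4 and at 21.2, 23.5, 30.4 and 24.3 in Rem 1 to 4. The groups were well apart, with a log2 fold change of -0.75 (SE 0.117, edgeR adjusted p 0.00282), and the call held in all 22 alternatives. EdgeR and DESeq2 called 0 of 8 pentose phosphate genes, where only Tkt had an unadjusted p under 0.05. Of 3 glucose transporters tested beside Slc2a2 they called 0 too, with 0 at an unadjusted p under 0.05 and the smallest p that of Slc2a3.

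Of 12 genes known to rise with fasting, 4 rose and 1 fell. Tat, an amino acid-degrading enzyme, had a log2 fold change of 1.63 (edgeR adjusted p 0.0111) and Cpt1a, the gate of mitochondrial fatty acid oxidation, one of 0.58 (edgeR adjusted p 0.00916). Both held with any 1 library left out, and without the 3 libraries low in Dbp Tat kept its call (edgeR adjusted p 0.0122) while Cpt1a did not (edgeR adjusted p 0.0537). Cpt1a was not called with library sizes only (0.28, edgeR adjusted p 0.155) or with log2(TPM + 1) (0.081, limma adjusted p 0.687). Ddit4 (1.55), Cyp4a14 (0.46) and Trib3 (-1.24) were called too, but their calls were lost without any 1 of 5, 5 and 7 libraries, with edgeR adjusted p values up to 0.0755, 0.111 and 0.125. Control 3 and Rem 2 and 3 for Ddit4, control 2 and 3 and Rem 3 for Cyp4a14, and Rem 1 for Trib3 were the libraries whose absence kept the call. Without the 3 libraries low in Dbp none of these 3 genes was called (edgeR adjusted p 0.193, 0.223 and 0.106). Several genes of this list are also known to respond to thyroid hormone.

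Markers of other cell types were read beside these results. Hepatocyte markers summed to 67841 to 76720 CPM in control and 86709 to 93329 in Rem, with Cps1 called higher (log2 fold change 0.76, edgeR adjusted p 0.00988). Of these 6 markers 4 had an unadjusted edgeR p under 0.05 (Alb, Apoa1, Cps1 and Asgr1, all above 0), and DESeq2 and limma-voom each called 3 higher. Their median log2 fold change was 0.34 with TMM scaling, 0.036 with library sizes only and -0.18 with log2(TPM + 1), with 0 called higher and 1 lower under both of the latter. In bulk liver, a change in the number of cells of a type and a change in RNA per cell cannot be told apart. Macrophage markers summed to 432 to 666 and 271 to 677 CPM, endothelial ones to 192 to 273 and 166 to 250, stellate ones to 327 to 531 and 352 to 615, and cholangiocyte ones to 28.3 to 53.0 and 40.5 to 71.6, with 0 edgeR or DESeq2 calls among these 23 genes and an unadjusted edgeR p under 0.05 for 4 (Stab2, Pecam1, Col1a1 and Sox9, all below 0). Lymphocyte markers (1.54 to 4.13 and 1.80 to 7.72 CPM) and neutrophil markers (2.77 to 6.52 and 1.76 to 5.73) were low. Red cell markers summed to 107 to 232 and 137 to 343 CPM, with a median log2 fold change of 0.78. Of these 5 markers 1, Alas2, fell (log2 fold change -2.52, edgeR adjusted p 0.00158), while the other 4 lay above 0 and were not called. Muscle markers summed to at most 0.451 CPM and pancreas ones to at most 0.194. The 4 adipocyte markers summed to 59.8 to 162 CPM in control and 44.5 to 130 in Rem, though 2 of them, Adipoq and Lep, had no counts. The 1 adipocyte marker that edgeR tested had a log2 fold change of -0.42 and was not called. It was called lower with log2(TPM + 1). The part of any of these in the members' differences was not tested.

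Some counts may hold reads of other genes. In the annotation of GRCm38, 7 members overlap a gene on the opposite strand: Pfkfb1 (Apex2), Aldoa (Fam57b), Tpi1 (Spsb2), Gapdh (Iffo1), Pklr (Hcn3), Pdha1 (Map3k15) and Pcx (Lrfn4). RefSeq names pseudogene copies of Pgk1 (3), Ldha (3), Gapdh (3), Tpi1 (7), Aldoa (2) and Pgam1 (2). The sources used here do not give how strand and shared reads were handled, so levels of these genes carry that uncertainty. Pgk1 lies at chromosome X from 106187100 to 106203699 and Ldha at chromosome 7 from 46841475 to 46855627, both on the plus strand (GRCm38, GENCODE M21).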

How the data were processed

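The 28 members and all other gene lists were chosen with earlier results of these data known. Per the labels' protocols, mRNA was captured on oligo(dT) beads, fragmented, copied to cDNA and sequenced. Per the submitters' processing notes, the tools were HISAT2 2.1.0, Bowtie2 2.2.8, fastp 0.18.0, RSEM, StringTie 1.3.1, edgeR and DESeq2 with build mm10, in roles the sources used here do not give. Per the file headers, the authors deposited whole-number counts and TPM per gene and library. The authors' deposited table also holds a log2 fold change, the log2 ratio of the groups' mean TPM, and a p-value and adjusted p-value for which no tool is named.

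From the counts, edgeR 4.0.16 (R 4.3.3) was run with filterByExpr, TMM factors and robust quasi-likelihood fits over all genes, with Benjamini-Hochberg adjustment and a threshold of 0.05. Fold changes are Rem minus control. Standard errors were taken as the fold change over the root of its F statistic. Of 22 alternatives, 20 were other scalings, DESeq2 1.42.0, limma 3.58.1 (voom, and trend on TPM with a pseudocount of 1 or 0.1), other filters, a replicate block, and each library left out, and 2 were added after seeing the data. All members are named. Of the other lists each called gene is named, up to 4 with the smallest p, or else the gene with the smallest p, and Trib3 and the marker and clock genes given per library were chosen after their values were seen. Libraries of 1 group differed beyond counting error (chi-square per degree of freedom of 13.9 or more). Some genes that this rule takes are left out. The fit was tested on simulated data. Every per-sample column was matched by name, and 0 were left unmatched.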

Additional observations from a re-analysis of the deposited data

Results flagged for a closer look

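In 2 of the 56 groups of 4 libraries examined for the 28 genes, 1 library lay far from the other 3 by Dixon's gap test at the 95% level, and chance alone gives about 1 group in 20. Pgk1 stood at 374 CPM in control 2, against 340 to 345 in the other control libraries, a gap of 0.839 of the range. All Rem libraries were above that value too. Fbp1 stood at 804 CPM in Rem 2, against 565 to 602 in the other Rem libraries, a gap of 0.842 of the range.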

How the results depend on the processing

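Calls among the 28 genes stayed at 2 higher and 0 lower with RLE or upper-quartile factors, TMM without the 20 most abundant genes, DESeq2, limma-voom, fits without robust estimation and both other filters. With library sizes only they were 0 higher and 9 lower, and the members' median was -0.23. With log2(TPM + 1) and log2(TPM + 0.1) they were 0 and 12 under both, with a median of -0.42 under both. On these TPM scales Gapdh went to -0.42, Pgk1 to -0.10, Pdha1 to -0.42 and -0.43, and Cyp4a14 to -0.036. With 1 library left out, 1 to 2 members were called higher and 0 to 1 lower: 1 of each without control 3, and 1 higher without control 4 or Rem 3. Calls among the other genes of glucose and glycogen metabolism, 4 higher and 5 lower in the main analysis, were 2 and 16 with library sizes only, and 3 to 8 and 4 to 5 with 1 library left out, the 8 being without Rem 3. The lists of these genes had 16, 18, 20, 10, 15, 8, 3 and 25 genes tested in the main analysis. Of all genes tested, 2.6% were called higher and 1.99% lower there, and 1.24% and 16.1% with library sizes only. With 1 library left out these shares were 1.47% to 2.54% and 1.21% to 1.93%. With settings added for these genes later their calls were 10 and 5 by DESeq2, where 3.79% and 2.78% of all its genes were called. Under both TPM scales their calls were 1 and 46, where 1.04% and 38.0% of all genes were called with log2(TPM + 1), and 1.05% and 37.6% with log2(TPM + 0.1). Of the 2 alternatives added later, library sizes without the Mup genes gave 2 higher and 4 lower with a median of -0.033, and leaving out the 3 libraries low in Dbp gave 0 and 0 with a median of -0.052, from fewer samples. Apart from what those constructions remove, the cause was not tested.

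Libraries with the same number did not deviate together (correlations of -0.33, 0.18, -0.19 and -0.061, with 1 of 4 libraries closest to its own number). So few values cannot decide whether the numbers pair the libraries, and the labels do not say. With the replicate block 0 members were called higher and 0 lower, with an adjusted p of 0.055 for Pgk1 and 0.0713 for Ldha. All members but Ppp1r3g had over 100 counts in every library.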
